A study of Mus musculus with 2 samples.

Results

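The genes described here are 10 components of MHC class I antigen presentation, out of 32285 genes in the deposited count tables: the heavy chains H2-K1, H2-D1 and H2-T23, the light chain B2m, the peptide transporter subunits Tap1 and Tap2, the loading factor Tapbp, the immunoproteasome subunits Psmb8 and Psmb9, and the transactivator Nlrc5. They were taken by symbol, and all 10 were found. Their unique molecular identifiers (UMIs, each standing for 1 captured transcript molecule) were counted in 2 single-cell libraries of CD45-sorted cells from subcutaneous tumours. Tumours were of the MFC line, a forestomach carcinoma of the mouse, and grew in wild-type BALB/c hosts. The control library (n = 1) came from mice given PBS. In the treated library (n = 1) the hosts received thonzonium bromide, a surfactant with a positive charge, at 50 mg/kg on every other day from day 6, with tumours collected on day 10. Animal age and the number of animals in a library are not given in the sources used here. With 1 library per group there is no replicate check and no test, and every 95% interval below covers counting error only.

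MHC class I molecules display peptides from inside the cell to CD8 T cells and are sensed by receptors of natural killer (NK) cells. Proteasomes cut proteins into peptides, the Tap1/Tap2 transporter moves the peptides into the endoplasmic reticulum, and tapasin, the product of Tapbp, helps to load them onto a heavy chain paired with beta-2 microglobulin. Interferon induces most of these genes, in part through Nlrc5, which acts at class I promoters. H2-K1 and H2-D1 encode classical heavy chains, whereas H2-T23 encodes Qa-1, a nonclassical chain read by inhibitory receptors of NK and CD8 T cells. In tumours the pathway is known for its loss from malignant cells.

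In the GRCm38 annotation 8 of the 10 genes lie on mouse chromosome 17, B2m lies on chromosome 2 and Nlrc5 on chromosome 8 (94434356 to 94527272). H2-K1 (17: 33996017 to 34000347, minus strand), Tapbp (17: 33915899 to 33929292), Psmb9 (17: 34181987 to 34187764, minus strand), Tap1 (17: 34187553 to 34197225), Psmb8 (17: 34197721 to 34201454), Tap2 (17: 34203527 to 34216321), H2-D1 (17: 35262730 to 35267499) and H2-T23 (17: 36029773 to 36032855, minus strand) all stand in the MHC. B2m stands on chromosome 2 (122147686 to 122153083). Tap1 and Psmb9 lie on opposite strands, and by these coordinates their 5′ ends overlap. The starts in the RefSeq promoter table used below are 226 bases apart, and the promoter windows share 275 bases.

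RefSeq promoter windows of 300 bases (GRCm38.p6, 250 bases before to 50 after the annotated start) were matched for 8 of the 10 genes, with Tap2 and Nlrc5 unmatched. The windows of the 4 chains that form the presented complex, and the window that Tap1 largely shares with Psmb9, are printed 5′ to 3′ because these promoters belong to genes whose levels are set side by side below. Capitals mark a palindromic kappa-B site or an interferon-stimulated response element. The response element was searched on both strands in a full form, with GAAA on either side of a 2-base gap, and in a shorter form, GAANNGAAA. H2-K1 has 2 annotated starts, of which the first in the table was used.
H2-K1: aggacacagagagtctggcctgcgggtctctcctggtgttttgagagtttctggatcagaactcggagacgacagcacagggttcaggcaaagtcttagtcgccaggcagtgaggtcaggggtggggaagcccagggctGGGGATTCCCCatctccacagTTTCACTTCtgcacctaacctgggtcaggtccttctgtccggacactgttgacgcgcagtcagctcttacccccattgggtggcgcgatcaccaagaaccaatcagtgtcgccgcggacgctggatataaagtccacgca
H2-D1: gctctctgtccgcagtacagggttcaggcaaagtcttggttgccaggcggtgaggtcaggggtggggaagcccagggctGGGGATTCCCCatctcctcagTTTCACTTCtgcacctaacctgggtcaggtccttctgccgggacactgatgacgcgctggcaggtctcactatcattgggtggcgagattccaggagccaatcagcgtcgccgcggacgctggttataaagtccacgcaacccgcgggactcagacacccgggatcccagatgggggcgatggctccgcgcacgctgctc
B2m: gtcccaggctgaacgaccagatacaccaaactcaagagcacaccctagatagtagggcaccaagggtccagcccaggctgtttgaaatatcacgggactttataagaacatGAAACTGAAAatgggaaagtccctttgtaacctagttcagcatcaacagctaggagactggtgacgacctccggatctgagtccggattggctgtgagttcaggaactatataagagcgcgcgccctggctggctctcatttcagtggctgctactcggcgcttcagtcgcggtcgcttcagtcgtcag
H2-T23: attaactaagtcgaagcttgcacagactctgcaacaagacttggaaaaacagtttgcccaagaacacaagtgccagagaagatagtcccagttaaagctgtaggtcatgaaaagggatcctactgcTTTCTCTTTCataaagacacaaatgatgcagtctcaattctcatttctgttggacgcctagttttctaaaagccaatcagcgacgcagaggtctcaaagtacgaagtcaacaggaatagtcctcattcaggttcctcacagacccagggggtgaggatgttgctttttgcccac
Tap1: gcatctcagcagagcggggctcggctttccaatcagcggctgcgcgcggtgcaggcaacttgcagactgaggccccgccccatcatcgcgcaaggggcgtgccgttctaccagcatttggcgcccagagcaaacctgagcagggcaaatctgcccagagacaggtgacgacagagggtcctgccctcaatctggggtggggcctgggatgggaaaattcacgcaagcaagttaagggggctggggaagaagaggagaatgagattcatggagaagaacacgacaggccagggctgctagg
The positions of these windows are chr17:34000298-34000597 (minus strand) for H2-K1, chr17:35262844-35263143 (plus strand) for H2-D1, chr2:122147437-122147736 (plus strand) for B2m, chr17:36032652-36032951 (minus strand) for H2-T23 and chr17:34187306-34187605 (plus strand) for Tap1. The kappa-B letters occurred in H2-K1 and H2-D1, that is in 2 of the 8 windows and in 0.0222% of 27025 promoters. The full response element occurred in B2m and H2-T23 (3.49% of promoters), and the shorter form in H2-K1 and H2-D1 (7.56%), where it lies downstream of the kappa-B letters. The Tap1 window held neither, so it has no capitals. CCAAT, the box bound by NF-Y, was found in 7 of the 8 windows (37.9% of promoters). TGACG, the core of the cyclic AMP response element, was found in 5 of the 8 (21.0%). Both counts include Tap1 and Psmb9, whose matches are the same sites in their shared bases, read from opposite strands. A match is a description of letters only.

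The filters kept 6419 of 7803 control barcodes and 5833 of 6724 treated ones, at median depths of 4300 and 7259 UMIs. Cell classes were assigned from marker genes and are called "like" the type whose markers they carry. The control and treated libraries held 1331 and 1225 T-like, 1250 and 1137 NK-like, 224 and 490 B-like, and 847 and 1761 monocyte/macrophage-like cells. Smaller classes were dendritic-like (99 and 113), plasmacytoid dendritic-like (119 and 36) and neutrophil-like cells (122 and 168). Mast cell or basophil-like cells were only 5 and 11 and are left out of the order of classes. Erythroid-like barcodes, which the sort and the lysis of red cells should remove, numbered 336 and 31. Cells marked by Rhox5, Cald1 and Shisal2b, here called Rhox5 cells, numbered 114 and 50. A further 1770 control and 535 treated barcodes, with medians of 976.5 and 1087 UMIs, carried too few marker UMIs for a class. The libraries shared 14 barcodes. Depth differed between the libraries, so levels are given as CPM, the count of a gene per 1000000 UMIs of a class.

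All 10 genes were detected in each of the 7 immune classes described here, and the order of classes differed between genes. B2m was highest in monocyte/macrophage-like cells, at 4564 CPM (4510 to 4619) in the control and 4837 (4803 to 4870) in the treated library. Dendritic-like (3972 and 3733 CPM), T-like (3951 and 4009), plasmacytoid dendritic-like (3792 and 3954) and NK-like cells (3845 and 3776) lay close together below them. B-like cells had 2215 and 2052 CPM, below the other 6 classes in both libraries. In T-like, NK-like, dendritic-like and plasmacytoid dendritic-like cells the B2m intervals overlapped with a neighbour in the order.

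The classical heavy chains were ordered differently from B2m. H2-K1 stood at 3520 CPM in control T-like cells (3483 to 3559) and 3627 in treated ones, with plasmacytoid dendritic-like cells at 3234 and 3628. It was lower in NK-like (2785 and 3042), monocyte/macrophage-like (2409 and 2244) and B-like cells (2047 and 2146), and lowest of these in neutrophil-like cells (1553 and 1115). H2-D1 was highest in plasmacytoid dendritic-like cells (3247 and 3569 CPM), whose interval overlapped that of dendritic-like cells (3081 and 3315) in both libraries. T-like cells had 2870 and 2852 CPM of H2-D1 and B-like cells 1791 and 1922.

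The balance between the classical chains therefore varied between classes, and also within them. H2-K1 made up 55.1% of the summed H2-K1 and H2-D1 UMIs in control T-like cells and 56.0% in treated ones. The share was 44.2% and 42.1% in monocyte/macrophage-like cells, with 41.0% and 39.1% in their classical monocyte-like subset. In neutrophil-like cells it was 39.2% (36.7 to 41.7) in the control and 26.8% (25.1 to 28.6) in the treated library. The few mast cell or basophil-like cells had 22.4% (14.03 to 32.7) and 24.3% (18.2 to 31.3). Among dendritic-like cells the share was 52.5% and 48.4% in the migratory subset and 38.9% and 37.2% in the type 2 subset. Neutrophil-like cells carried 933 control and 1869 treated H2-D1 UMIs, and the intervals of their shares do not overlap.

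H2-T23 stood highest in plasmacytoid dendritic-like cells, which are known as producers of type I interferon. It reached 1232 CPM (1161 to 1306) in the control and 1186 (1080 to 1299) in the treated library. Next were dendritic-like (754.8 and 622.2), monocyte/macrophage-like (659.7 and 697.5) and T-like cells (602.5 and 615.1), and NK-like cells had 447.7 and 475.3. After each cell was thinned to 1000 UMIs, 67.3% (control) and 68.6% (treated) of plasmacytoid dendritic-like cells and 46.9% and 46.8% of T-like cells had an H2-T23 UMI. Unthinned, the shares were 85.7% and 97.2% in plasmacytoid dendritic-like and 90.2% and 94.9% in T-like cells. Thinning left out 15 control and 1 treated plasmacytoid dendritic-like and 16 control T-like cells.

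Genes of peptide supply and loading had different leading classes. Psmb8 was highest in dendritic-like cells, at 1327 CPM (1250 to 1407) in the control and 1435 (1370 to 1503) in the treated library. T-like cells had 932.2 and 1018 CPM of Psmb8, and B-like cells 467.4 and 498.7. Psmb9 had the same leading class, at 564.9 and 632.6 CPM. Tap1 stood at 347.9 and 374.8 CPM in dendritic-like and 346.1 and 368.3 in monocyte/macrophage-like cells, with overlapping intervals. Tap2 was at 152.1 and 170.3 CPM in dendritic-like and 153.4 and 159.1 in T-like cells, also overlapping. Tapbp was highest in control plasmacytoid dendritic-like cells, at 508.0 CPM, and in the treated library it did not differ beyond counting error between them (463.5) and monocyte/macrophage-like cells (472.0).

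Nlrc5, the regulator of the set, was highest in T-like cells, at 150.4 CPM (142.6 to 158.4) in the control and 136.9 (129.8 to 144.3) in the treated library. In the treated library its interval overlapped that of neutrophil-like cells (104.4 CPM, 80.4 to 133.3). NK-like cells had 61.4 and 64.2 CPM and B-like cells 59.3 and 58.3. Dendritic-like cells, which led for Psmb8 and Psmb9, had 114.4 and 94.7 CPM of Nlrc5.

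**Figure D1:**
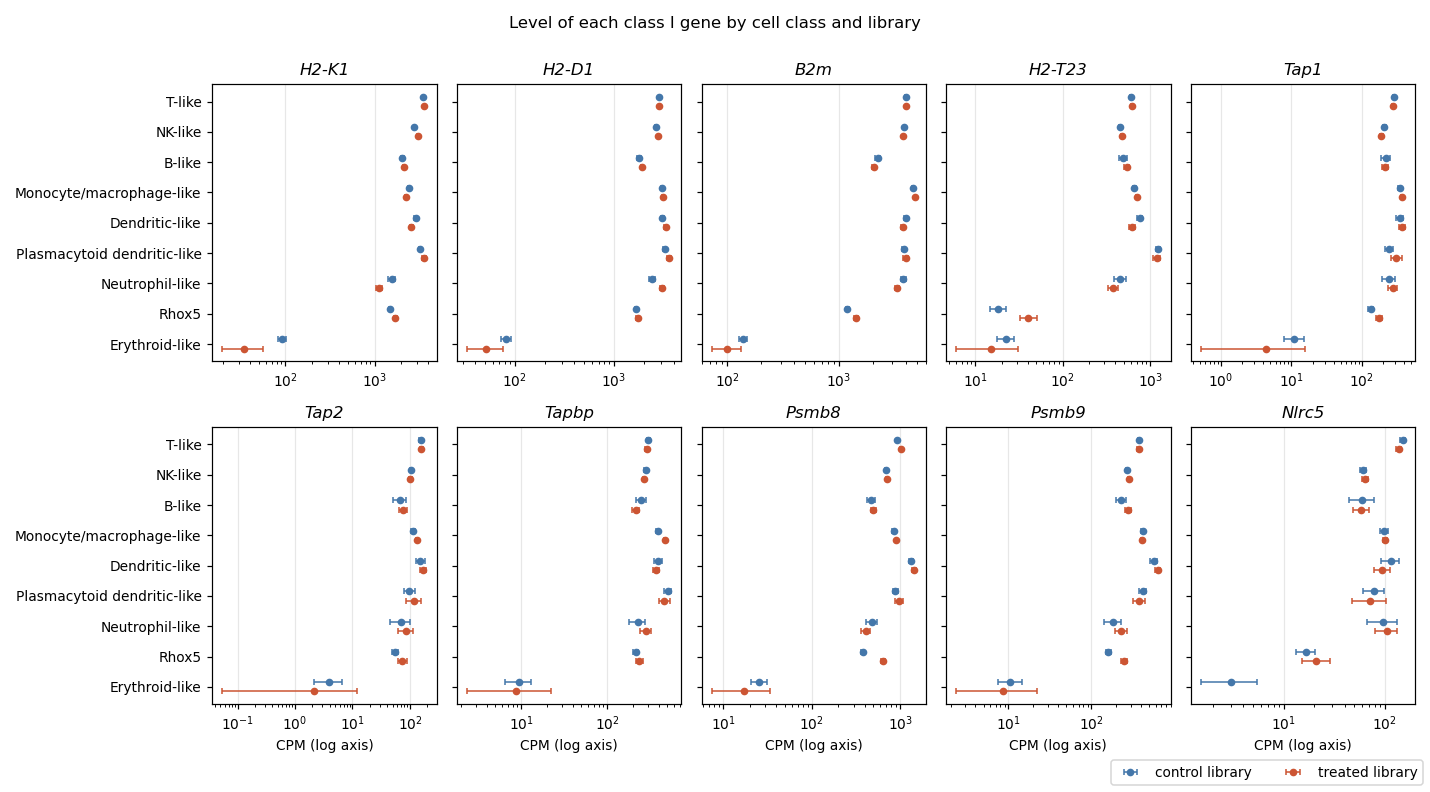
CPM (log axis) of each of the 10 genes in 9 cell classes, with 95% counting intervals and the control and treated library in separate colours. Immune classes lie close together for each gene, Rhox5 cells lie far lower for H2-T23 and Nlrc5, and erythroid-like barcodes lie lowest for every gene except H2-T23 in the control; Nlrc5 had 0 UMIs in treated erythroid-like barcodes and is not drawn there.

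Levels also differed between subsets of a class. Regulatory T-like cells (241 control and 115 treated), which restrain other T cells, carried 5699 and 5775 CPM of H2-K1 and 5009 and 5467 of B2m. CD8 T-like cells (426 and 547) carried 2875 and 3587 CPM of H2-K1. Summed over the 10 genes, presentation transcripts were 1.91% and 1.99% of all UMIs in regulatory T-like cells against 1.14% and 1.32% in CD8 T-like cells. Migratory dendritic-like cells (61 and 58), the form that carries antigen to lymph nodes, had 1.97% and 1.97%. Complement macrophage-like cells (155 and 390), marked by C1q genes, had 1.56% and 1.69%, against 1.22% and 1.18% in classical monocyte-like cells (405 and 1053).

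The dendritic subsets also differed by gene. Migratory dendritic-like cells had 4870 and 4369 CPM of H2-K1 and 1598 and 1911 of Psmb8. Type 1 dendritic-like cells, the subset known for cross-presentation, were only 5 control and 10 treated cells. They had 1630 and 1880 CPM of Psmb8 and 893.2 and 1056 of Psmb9 but 1207 and 1049 of H2-K1. Type 2 dendritic-like cells (25 and 37) had 962.8 and 727.7 CPM of Psmb8 and 1494 and 1301 of H2-K1.

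The comparison of treated with control cells asked whether the presentation genes differed within a class. In the 4 classes with at least 200 cells in each library they differed little. A gene was counted as higher or lower when its CPM ratio was at least 1.2-fold and its counting interval excluded 1, among genes with at least 50 UMIs. No member met this rule in T-like cells, where 4.37% of 10329 genes were higher and 12% lower by it. No member met it in NK-like cells, where 5.04% of 10403 genes were higher and 8.51% lower. In B-like cells 1 of 10 was higher and 0 lower, against 4.53% higher and 14.8% lower of 5894 genes. In monocyte/macrophage-like cells 1 of 10 was higher and 0 lower, against 8.23% higher and 13% lower of 10009 genes. At 1.5-fold the count was 0 in all 4 classes, where 1.54%, 1.33%, 2.39% and 2.02% of genes were higher and 3.22%, 2.64%, 7.94% and 5.68% lower in T-like, NK-like, B-like and monocyte/macrophage-like cells. Counts this small are close to these backgrounds.

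The members that met the rule were Psmb9 in B-like cells and Tapbp in monocyte/macrophage-like cells. Psmb9, an immunoproteasome subunit, was at 227.0 CPM in control and 279.2 in treated B-like cells, a ratio of 1.23 (1.05 to 1.45). Tapbp, which encodes tapasin, was at 390.5 and 472.0 CPM in monocyte/macrophage-like cells, a ratio of 1.21 (1.15 to 1.27). The second largest ratio in monocyte/macrophage-like cells was that of Tap2, at 1.15 (1.06 to 1.26). The lowest there was that of H2-K1, at 0.932 (0.914 to 0.950).

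The median log2 ratio of treated to control CPM over the 10 members was 0.01 in T-like, 0.04 in NK-like, 0.08 in B-like and 0.08 in monocyte/macrophage-like cells. Over all genes tested the medians were -0.05, -0.02, -0.10 and -0.03. Single ratios of members ran from 0.910 to 1.09 in T-like, 0.906 to 1.09 in NK-like, 0.863 to 1.23 in B-like and 0.932 to 1.21 in monocyte/macrophage-like cells. The median size of the log2 ratio, regardless of sign, was 0.041 for the members and 0.152 for all genes in T-like cells, and 0.087 and 0.180 in monocyte/macrophage-like cells. Members are abundant genes, and low counts alone widen the spread of all genes.

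**Figure D2:**
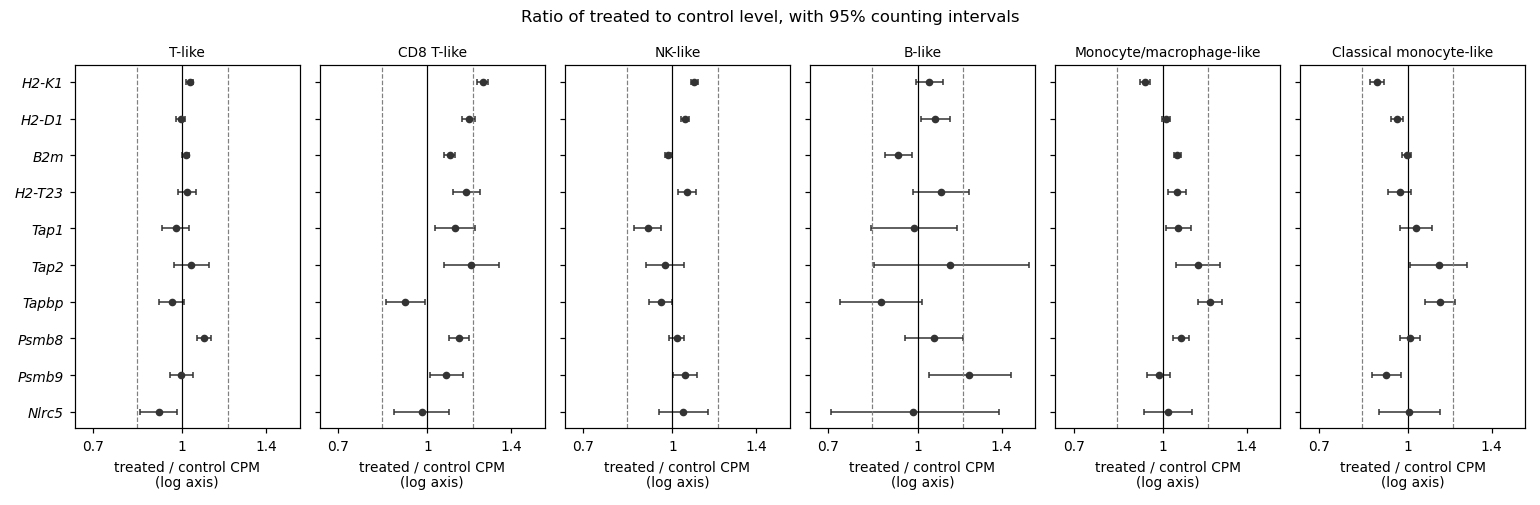
Ratio of treated to control CPM (log axis) of the 10 genes in 4 classes and 2 subsets, with 95% counting intervals, a solid line at 1 and dashed lines at 1.2-fold in each direction. Most points lie between the dashed lines; H2-K1 in CD8 T-like cells lies above them at 1.25 while the T-like class as a whole is at 1.03.

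CD8 T-like cells, the cytotoxic T cells that class I serves, carried more of most presentation transcripts in the treated library. H2-K1 was at 2875 CPM (2825 to 2927) in control and 3587 (3535 to 3639) in treated CD8 T-like cells, a ratio of 1.25 (1.22 to 1.28). H2-D1 was at 2304 and 2722 CPM, a ratio of 1.18 (1.15 to 1.21), and B2m at 3613 and 3950, a ratio of 1.09 (1.07 to 1.12). H2-T23 (1.17), Tap2 (1.19), Tap1 (1.12), Psmb8 (1.14) and Psmb9 (1.08) also had intervals above 1. Tapbp went the other way, at 288.5 and 264.1 CPM (0.915, 0.847 to 0.990), and Nlrc5 was at 142.5 and 139.5 CPM. Thus 8 of the 10 intervals lay above 1, as did those of 10.5% of the 8939 genes tested in this subset, and the median log2 ratio was 0.17 against -0.03 over all genes. The interval shares are not like for like, because intervals narrow as counts rise. B2m had 15288 and 20025 UMIs here, whereas a tested gene needed only 50. Only H2-K1 met the 1.2-fold rule, against 7.62% of genes higher and 11.2% lower.

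The CD8 T-like cells were also split by a UMI of the proliferation genes Mki67 or Top2a. In cells with such a UMI, H2-K1 was at 2811 CPM in 186 control and 3508 in 205 treated cells, a ratio of 1.25 (1.21 to 1.29). In cells without one it was at 2953 CPM in 240 control and 3654 in 342 treated cells, a ratio of 1.24 (1.198 to 1.279). H2-T23 had a ratio of 1.17 with and 1.16 without such a UMI, while Tap1 had 0.985 (0.881 to 1.10) with and 1.30 (1.15 to 1.46) without. This split was chosen after the values were seen. The part of other cell states within CD8 T-like cells in the difference is not reported here.

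In regulatory T-like cells H2-K1 was at 5699 (5562 to 5839) and 5775 CPM (5584 to 5971), with overlapping intervals, while B2m was at 5009 and 5467. In CD4 T-like cells, with 118 control and 72 treated cells, H2-K1 was at 4720 and 3735 CPM, a ratio of 0.791 (0.738 to 0.848). H2-D1 was at 0.751, Tap1 at 0.622 (0.473 to 0.811) and Nlrc5 at 0.447 (0.282 to 0.687). B2m was at 0.861, Tap2 at 0.751, Tapbp at 0.864, Psmb8 at 0.963, Psmb9 at 1.04 and H2-T23 at 0.849. CD4 T-like cells were fewer than 200 in each library, and the share of all genes that met the 1.2-fold rule was not computed. These ratios are therefore given as values only. Regulatory T-like cells, with the highest levels, were fewer in the treated library (241 and 115), and CD8 T-like cells, with lower levels, were more (426 and 547). With the same subset weights in both libraries, the median log2 ratio of the T-like class was 0.06, against 0.01 without them. Over all settings tried it ranged from -0.04 to 0.06. The part of subset numbers in the T-like ratio was not tested. The difference in ratio between the T-like subsets was not tested.

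In monocyte/macrophage-like cells several genes of the Q region, which encodes nonclassical heavy chains such as Qa-2, stood lower in the treated library. H2-Q7 was at 529.1 CPM in control and 361.7 in treated cells of this class, a ratio of 0.684 (0.655 to 0.714). H2-Q6 was at 155.3 and 92.5 CPM (0.596, 0.549 to 0.647), H2-Q4 at 102.2 and 77.4 (0.757, 0.687 to 0.835) and H2-Q10 at 20.95 and 12.5 (0.595, 0.474 to 0.749). Beside them H2-D1 had a ratio of 1.01 (0.997 to 1.03) and H2-T22, a T region chain, 0.929. Among 10 measured heavy chain genes outside the 10 members, 6 were lower and 0 higher by the 1.2-fold rule, against 13% and 8.23% of all genes, with a median log2 ratio of -0.47. The other 2 that met the rule were Fcgrt, the neonatal Fc receptor chain (0.687), and Cd1d1, a lipid-presenting chain with 30 and 34 UMIs.

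H2-Q7 was lower in the treated library in each of the 3 named monocyte and macrophage subsets. In classical monocyte-like cells H2-Q7 was at 378.3 and 230.5 CPM, a ratio of 0.609 (0.569 to 0.652), with H2-K1 at 2002 and 1767 (0.883, 0.858 to 0.907). In nonclassical monocyte-like cells (99 and 107), whose median depths were 1395 and 4750 UMIs, H2-Q7 was at 423.0 and 287.5 CPM. In complement macrophage-like cells it was at 814.4 and 673.6 CPM. Averaged over cells alike, H2-Q7 in the whole class was at 573.9 and 375.9 CPM, a ratio of 0.655. In CD8 T-like cells H2-Q7 went the other way, at 1171 and 1433 CPM (1.22, 1.18 to 1.27). None of the 10 members met the rule in classical monocyte-like cells, where 7.86% of genes were higher and 10.7% lower. The other 2 subsets held fewer than 200 cells in at least 1 library, and the share of all genes that met the rule there was not computed. Their ratios are given as values only. In nonclassical monocyte-like cells they ran from 0.914 for Nlrc5 to 1.78 for Tapbp. H2-K1 was at 1.11, H2-D1 at 1.23, B2m at 1.21, Tap1 at 1.27 and Tap2 at 1.18. Psmb8 was at 1.38, Psmb9 at 1.41 and H2-T23 at 1.28. In complement macrophage-like cells the ratios ran from 1.03 for H2-K1 to 1.25 for Tapbp, with H2-T23 at 1.21.

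**Figure D3:**
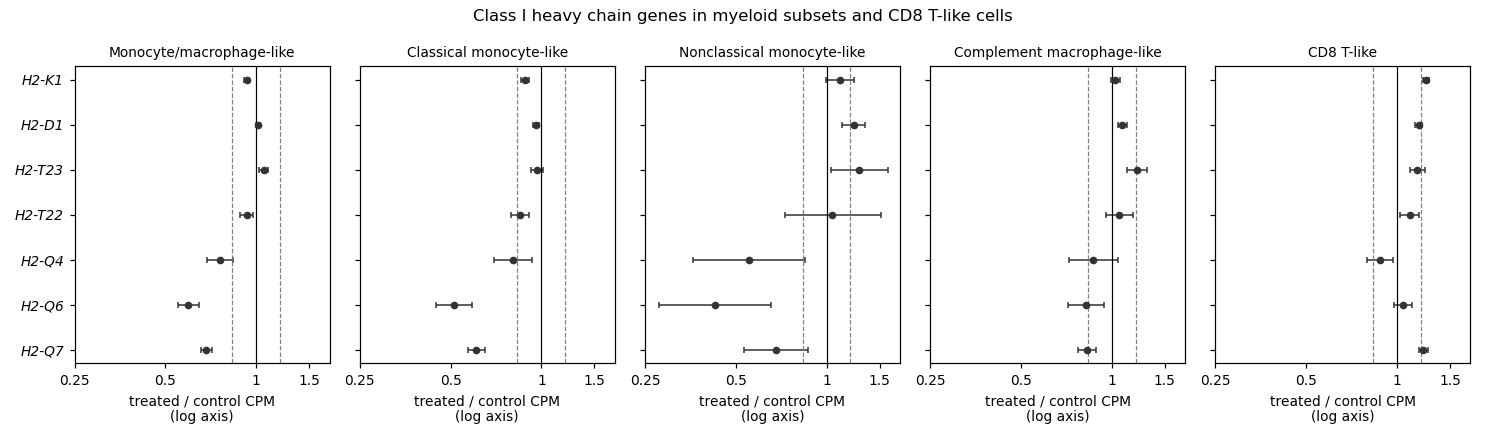
Ratio of treated to control CPM (log axis) of 7 heavy chain genes in the monocyte/macrophage-like class, its 3 named subsets and CD8 T-like cells, with 95% counting intervals, a solid line at 1 and dashed lines at 1.2-fold. H2-Q4, H2-Q6 and H2-Q7 lie below 1 in every myeloid panel, with an interval that includes 1 for H2-Q4 in complement macrophage-like cells, at 0.684 for H2-Q7 in the whole class, while H2-Q7 lies at 1.22 in CD8 T-like cells.

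Some of these counts can be split or shared with other genes that hold the same bases. Of the 50-base windows in the last 500 bases of the transcript, where 3′ reads fall, 38.1% of those of H2-T23 and 9.53% of those of H2-D1 also occur in transcripts of other genes, against 0.443% for H2-K1 and 0 for the other 7 members. The share was 59.2% for H2-T22, 35.9% for H2-Q6, 33.7% for H2-Q4 and 6.21% for H2-Q7, so values of these genes, H2-T23 included, are uncertain. The sharing genes were class I genes for H2-T22 (H2-T10) and H2-Q7 (H2-Q5 and H2-Q10). For the others the genes with most shared windows lay largely outside class I. Examples are Adsl and Kcnk4 for H2-D1, Rab33b and Hook2 for H2-T23, Efr3a and Cd59b for H2-Q6 and Olfr1238 and Olfr552 for H2-Q4. BALB/c mice also carry another H2 haplotype than C57BL/6J, the strain of the mm10 genome, and how alleles affect the counted level of each chain was not tested.

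The immunoproteasome forms when Psmb8, Psmb9 and Psmb10 replace the constitutive catalytic subunits Psmb5, Psmb6 and Psmb7. Psmb8 made up 86.3% of the summed Psmb8 and Psmb5 UMIs in control T-like cells (85.6 to 86.9) and 86.7% in treated ones. The share was 79.9% and 78.3% in NK-like, 84.3% and 84.6% in monocyte/macrophage-like, and 87.9% and 86.5% in dendritic-like cells. Rhox5 cells stood apart at 54.6% (52.9 to 56.3) in the control and 64.7% (62.5 to 66.8) in the treated library. Psmb9 made up 72.2% and 71.1% of its pair in T-like cells, 62.6% and 61.7% in NK-like cells and 37.9% and 45.2% in Rhox5 cells. For Psmb10 the shares lay closer together, at 67.7% and 74.6% of its pair in Rhox5 cells and 68.9% and 71.6% over all immune classes.

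**Figure D4:**
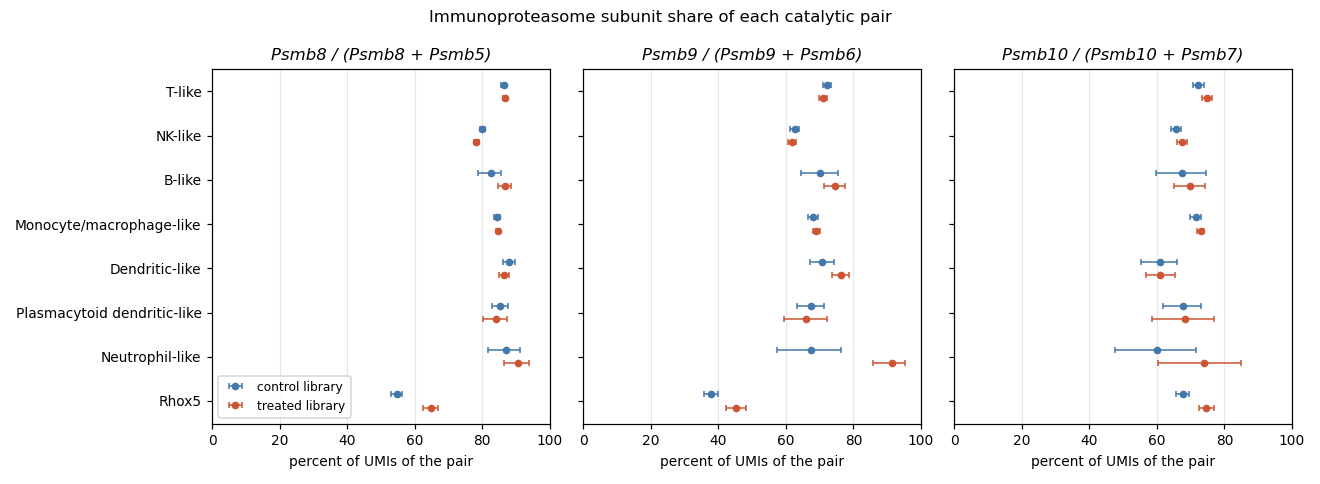
Percent of UMIs of each catalytic pair that came from the immunoproteasome subunit, by class and library, with exact 95% intervals. Rhox5 cells lie lowest for Psmb8 (54.6% and 64.7%) and Psmb9 (37.9% and 45.2%) and close to the immune classes for Psmb10.

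Rhox5 cells are non-immune by their markers. Rhox5 was at 615.9 and 599.2 CPM in them and at 2.50 and 1.68 in immune cells, and the collagen gene Col3a1 was at 326.2 and 290.9. The epithelial marker Krt8 had 1 control and 2 treated UMIs and Epcam had 0 in both, so the cells are called by the gene that marks them and not as carcinoma cells. Ptprc, which encodes CD45, was at 1.44% of the immune level in control and 6.86% in treated Rhox5 cells. Median depths were 15809 and 22845 UMIs.

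Classical class I transcripts were present in Rhox5 cells below the level over all immune cells, though for H2-K1 not below every class. H2-K1 had 1494 CPM (1461 to 1529) in control and 1706 (1649 to 1765) in treated Rhox5 cells, which is 51.3% and 61.0% of the level over all immune cells. Neutrophil-like cells had 1553 CPM in the control, with overlapping intervals, and 1115 in the treated library, below the Rhox5 cells. For H2-D1 and B2m the Rhox5 values were below those of every immune class in the order. The control H2-D1 interval of Rhox5 cells overlapped that of B-like cells (1791 CPM, 1705 to 1881). In Rhox5 cells H2-D1 was at 1677 and 1733 CPM (60.1% and 59.8%) and B2m at 1188 and 1425 CPM (30.0% and 34.4%). Treated Rhox5 cells had more Psmb8 (642.8 CPM) than treated B-like (498.7) and neutrophil-like cells (409.3). Relative to the level over all immune cells, the values for peptide loading were as follows. In Rhox5 cells Tap1 was at 50.8% and 61.8%, Tap2 at 45.5% and 58.7% and Tapbp at 68.0% and 67.7% of the immune level. The median over the 10 members was 46.9% and 60.4%. Levels varied from cell to cell, with the middle 80% of cells between 3.38 and 24.9 H2-K1 UMIs per 10000 in the control and between 5.79 and 29.4 in the treated library.

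H2-T23 and Nlrc5 were the members furthest below the immune level. H2-T23 had 92 UMIs in control and 79 in treated Rhox5 cells, or 18.3 CPM (14.7 to 22.4) and 40.5 (32.1 to 50.5), which is 3.23% and 6.72% of the immune level. In the Rhox5 cells with no Ptprc UMI it was at 26.7 and 11.9 CPM, or 4.72% and 1.98%. With each cell weighted alike, H2-T23 in Rhox5 cells was at 10.5% and 14.6% of the immune level. Nlrc5 was at 16.7 and 21.0 CPM, or 17.2% and 22% of the immune level. Erythroid-like barcodes, which should hold little class I transcript of their own, were taken as a background of free RNA. In them the 10 members were at 2.91% to 4.22% of the immune level in the control, with Ptprc at 2.97%. In the treated library they were at 0% to 2.50%, with Ptprc at 1.80%. The control H2-T23 level of Rhox5 cells overlapped that of erythroid-like barcodes (22.4 CPM, 17.8 to 27.9), so the level per UMI was not told apart from theirs. Rhox5 cells were deeper, and counts per barcode were less alike. In the control, 92 H2-T23 UMIs came from 114 Rhox5 cells and 81 from 336 erythroid-like barcodes. Which scale fits free RNA was not tested. Relative to the immune level, Ptprc was lower in control Rhox5 cells than in control erythroid-like barcodes. Whether both hold the same background of free RNA was not tested. No such background was computed with each cell weighted alike. The treated level lay above that of erythroid-like barcodes (15.1 CPM, 6.07 to 31.1), beside Ptprc at 6.86% of its immune level, but the level in cells with no Ptprc UMI overlapped it. The other 9 members were above the erythroid-like level in both libraries. With cells thinned to 1000 UMIs, 4.67% of control Rhox5 cells (1.53 to 10.6) and 8.16% of treated ones (2.27 to 19.6) had an H2-T23 UMI. Among erythroid-like barcodes, with median depths of 10733.5 and 13515 UMIs, 2.42% of control and 0 of 31 treated ones had one, which allows a share of up to 9.68%. Unthinned, the shares were 42.1% and 50.0% in Rhox5 cells and 18.2% and 16.1% in erythroid-like barcodes. Thinning left out 7 control and 1 treated Rhox5 cells and 5 control erythroid-like barcodes.

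Between the libraries, the immunoproteasome subunits were higher in treated than in control Rhox5 cells. Psmb8 had 377.4 CPM (360.6 to 394.7) in control cells and 642.8 (607.7 to 679.4) in the treated library, and Psmb9 had 158.9 (148.1 to 170.3) and 248.8 (227.1 to 272.0). Psmb10, which is not a member, was at 340.3 and 581.2 CPM. Of the Rhox5 cells, 50.9% (control) and 46% (treated) held a Ptprc UMI. In the 56 control and 27 treated cells with no Ptprc UMI, Psmb8 was at 376.3 and 648.3 CPM and Psmb9 at 165.8 and 274.6. H2-D1 was at 1981 and 1724 CPM in those cells and B2m at 1452 and 1372. The part of immune transcripts in the difference between the libraries was not tested. The median Rhox5 cell had 342.5 and 592.6 CPM of Psmb8. With each cell weighted alike the means were 442.5 and 577.7 CPM for Psmb8 (1.31), 167.4 and 190.2 for Psmb9 (1.14), 113.4 and 186.1 for Tap1 (1.64) and 54.9 and 83.7 for Tap2 (1.52), so the order of the ratios depended on the weighting.

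By the 1.2-fold rule 5 members were higher and 0 lower in Rhox5 cells, against 8.55% higher and 9.2% lower of 8934 genes. They were Psmb8 (1.70), Psmb9 (1.57), Tap1 (1.32), Tap2 (1.35) and H2-T23 (2.22). In Rhox5 cells with no Ptprc UMI, 8 members had at least 50 UMIs. Of these, Psmb8 (1.72) and Psmb9 (1.66) were higher and Tapbp was lower, at 272.6 and 201.8 CPM (0.740, 0.612 to 0.892), against 8.87% higher and 10.4% lower of 5019 genes. Tap1 and Tap2 did not meet the rule there, and H2-T23, with 34 and 10 UMIs, had the opposite direction. With 50 treated cells from 1 library these counts are given as values.

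**Figure D5:**
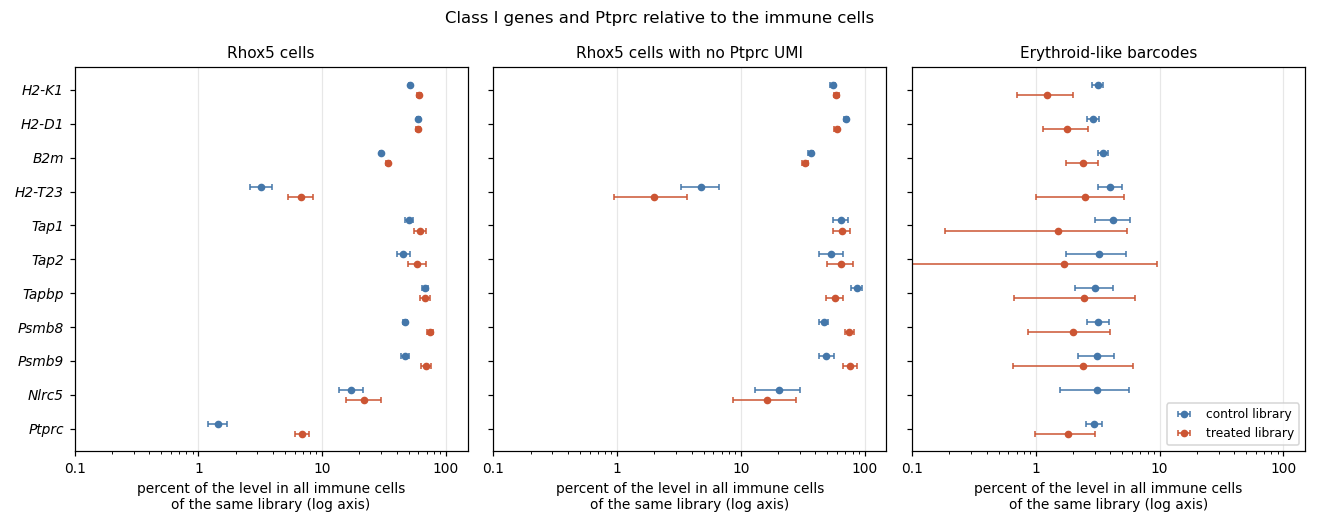
Level of each member and of Ptprc as a percent of the level over all immune cells of the same library (log axis), with 95% counting intervals, in Rhox5 cells, Rhox5 cells with no Ptprc UMI and erythroid-like barcodes. In Rhox5 cells H2-T23 lies at 3.23% and 6.72% while H2-K1 lies at 51.3% and 61.0%; in control erythroid-like barcodes all 10 members lie between 2.91% and 4.22%. Genes with 0 UMIs are not drawn.

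The rest of the pathway was read from lists of related genes, by the same rule and backgrounds as the members. Among 7 peptide loading and trimming genes, 1 was higher in monocyte/macrophage-like cells: Erap1, an aminopeptidase that trims peptides, at 28.7 and 35.5 CPM (1.24, 1.04 to 1.48). In B-like cells 1 of these 7 was lower: Hspa5, a chaperone of the endoplasmic reticulum, at 478.6 and 357.6 CPM (0.747). None of the 7 met the rule in T-like or NK-like cells. Among Psmb10 and the proteasome activator genes Psme1 and Psme2, and among Psmb5, Psmb6 and Psmb7, none met it in any of the 4 classes.

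Regulators of class I transcription gave few calls. Of 12 measured, Creb1 was lower in T-like cells (0.804), Rfxank (1.37) and Nfyb (1.22) were higher and Nfya lower (0.762) in NK-like cells, and Rfxap was lower in monocyte/macrophage-like cells (0.768). Of 11 measured in B-like cells, Nfya (0.622) and Atf1 (0.647) were lower. Rfxank and Rfxap encode subunits of RFX and Nfya and Nfyb subunits of NF-Y, complexes that bind class I promoters together with Nlrc5. Among other heavy chains, H2-Q4 (0.830) and H2-Q10 (0.753) were lower in T-like cells, H2-T24 lower in NK-like (0.677) and B-like cells (0.617), and H2-Q7 higher in B-like cells (1.22).

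Across 7 classes in 2 libraries, 14 points in all, the level of most members followed that of the others. The correlation of log2(CPM + 1) of each member with the mean standardised level of the other 9 ran from 0.604 for H2-K1 to 0.928 for Tap2. The non-member genes most like the mean of the members were Ccnd3 (0.978), Epsti1 (0.959), Prex1 (0.953), Bcl2a1d (0.946) and Ramp1 (0.945). Without the Rhox5 points, H2-K1 remained the member least like the others, at 0.475 over 12 points. B2m fell from 0.862 to 0.694 and Nlrc5 from 0.822 to 0.621, while Tap2, Tapbp, Psmb8 and Psmb9 did not fall. The list of non-members also depended on those points. Without them it was S100a4 (0.957), Gm4951 (0.954), Ccnd3 (0.951), Nrp1 (0.947) and Plxnd1 (0.943). The points share libraries and depth, so these values are descriptions.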

How the data were processed

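Single-cell RNA was measured in 1 control and 1 treated library, prepared by droplet capture with a 3′ kit of 10x Genomics. The deposited files hold raw UMI counts per gene and barcode, written by Cell Ranger 6.1.2 per the file headers. Seurat 3.0, R 3.5.3 and the mm10 build are listed as well, per the submitters' processing notes. Barcodes needed 200 or more genes and no more than 20% of UMIs from mitochondrial genes. A cell joined a class when its summed marker UMIs were at least 3 and at least 2 times those of any other class. This rule was set after the data were seen. Cells with both T and NK markers were kept as T-like, 202 control and 276 treated cells with other competing markers were left out, and no doublet caller was run.

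UMIs were summed per class and library and scaled to CPM in Python 3.11.15 (numpy 2.4.6), with exact Poisson intervals for levels, conditional binomial intervals for ratios and Clopper-Pearson intervals for shares (scipy 1.17.1). The ratio step was checked on simulated data. Cells of 1 library share a tumour digest, a sort and a droplet run, and these intervals do not cover differences between such runs. Members and gene lists were chosen with earlier results of these data known. All 10 members are named, list genes are named where they met the 1.2-fold rule, and the genes most like the members are the 5 with the highest correlation. The split of CD8 T-like cells, the Rhox5 cells without Ptprc, and the subsets and Q region genes given in detail were chosen after seeing values. A second split of CD8 T-like cells is not reported here. Alternatives included Leiden clusters (scanpy 1.11.5, leidenalg 0.10.2), other filters, each cell scaled alike and thinning. Coordinates are from a GRCm38 annotation.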

Additional observations from a re-analysis of the deposited data

Results flagged for a closer look

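For 4 members the ratio of treated to control CPM lay above 1 in one main class and below 1 in another, with counting intervals on either side of 1. The difference between classes was not tested, and with 1 library per group it has no replicate check. H2-K1 had ratios of 1.03 in T-like and 1.09 in NK-like cells but 0.932 in monocyte/macrophage-like cells. B2m had ratios of 1.01 in T-like and 1.06 in monocyte/macrophage-like cells but 0.982 in NK-like and 0.926 in B-like cells. Tap1 was at 1.06 in monocyte/macrophage-like and 0.906 in NK-like cells. Tapbp was at 1.21 in monocyte/macrophage-like and 0.954 in NK-like cells.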

How the results depend on the processing

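No paired analysis was possible because each group holds 1 library and no result comes from a test. H2-T23, called higher in treated Rhox5 cells, had the opposite direction in Rhox5 cells with no Ptprc UMI (26.7 and 11.9 CPM), where the count of members was 2 higher and 1 lower in place of 5 and 0. Of the alternative values of the main comparisons 49 stayed close to the reported value and 25 moved. The median log2 ratio ranged over its settings from -0.04 to 0.06 in T-like, 0.01 to 0.06 in NK-like, 0.07 to 0.21 in B-like and 0.05 to 0.17 in monocyte/macrophage-like cells. In monocyte/macrophage-like cells it was 0.15 with Leiden clusters and 0.17 with each cell scaled alike. In T-like cells it was 0.061 with ratios centred on all genes, 0.059 with the same subset weights and -0.045 with cells thinned to 1000 UMIs. At 1.5-fold the count of members was 0 in B-like and 0 in monocyte/macrophage-like cells. With each cell scaled alike, Rhox5 cells had a median of 42.4% (control) and 55.0% (treated) of the immune level, with H2-T23 at 10.5% and 14.6%. With no Ptprc UMI the control median was 51.5%, with H2-T23 at 4.72% and 1.98%. Thinned to 2000 UMIs, H2-T23 was found in 66.8% and 68.8% of T-like and 14.3% of control Rhox5 cells. With each cell scaled alike, Psmb8 shares were 87.3% and 87.8% in T-like and 57.6% and 61.6% in Rhox5 cells. Psmb9 shares were then 74.3% and 73.1% in T-like cells, and Psmb10 shares were 76.9% in treated T-like and 71.2% in treated Rhox5 cells. The cause of these shifts was not tested. Of the values of single genes, 386 stayed close and 134 moved. Ratios, levels and shares of Rhox5, dendritic-like and neutrophil-like cells rest on few cells, and a sum over cells is weighted to the deepest of them.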

Other observations

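Ungated barcodes, which held few marker UMIs, also carried the 10 presentation genes, at 0.969% (control) and 0.973% (treated) of their UMIs. Their Nlrc5 level was 166.9 CPM (150.9 to 184.1) and 165.8 CPM (140.0 to 195.0), or 172% and 173% of the level over all immune classes. Cells with competing markers had 0.969% and 1.12% of UMIs from the 10 genes.

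Neutrophil-like cells differed from the other classes in their balance of heavy chains. H2-Q10, a Q region chain, was at 193.8 CPM (152.4 to 242.9) in 122 control and 301.7 CPM (259.8 to 348.4) in 168 treated cells, while over all immune classes H2-Q10 was at 32.0 and 24.9 CPM. H2-Q7 was at 346.2 CPM (290.1 to 410.0) and 133.7 CPM (106.3 to 166.0) in the same neutrophil-like cells. Psmb9 made up 67.3% (57.4 to 76.2) of its catalytic pair there in the control and 91.4% (85.8 to 95.4) in the treated library. These shares come from 70 and 139 Psmb9 UMIs and only 34 and 13 Psmb6 UMIs. The Psmb8 share was 86.9% (81.6 to 91.1) and 90.6% (86.5 to 93.8), and the Psmb10 share 60% (47.6 to 71.5) and 74.1% (60.3 to 85.0). For both the intervals overlapped. Each of these differences comes from 1 library per group and was not tested.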
